A study of Homo sapiens with 24 samples.

Results

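The genes described here are 43 genes of glycolysis and of the transcriptional response to low oxygen, taken as a list of gene symbols. The rule for the list names no measured value, but the list was drawn up with earlier results of these data known. Each symbol matched 1 row among the 58676 gene rows of the count file. They comprise 4 glucose and lactate transporters and 9 genes from hexokinase to the aldolase and triose phosphate steps. A further 6 genes act from glyceraldehyde phosphate to pyruvate and 6 in lactate and pyruvate fate or glycolytic control. The rest are 4 genes of the hypoxia-inducible factor (HIF) subunits and their oxygen sensors and 14 other HIF target genes. Of those 14, 9 act in pH, vessels, lipid or stress and 5 in mitophagy, collagen or chromatin. Glycolysis breaks glucose down to pyruvate, and many tumour cells turn that pyruvate into lactate even where oxygen is present. When oxygen is scarce, prolyl hydroxylases of the EGLN family no longer mark the HIF alpha subunits for destruction. The stabilised factor raises transcription of glucose transporters, most glycolytic enzymes and genes for blood vessel growth. Cells in the interior of a spheroid receive less oxygen and glucose than those at its surface, so this gene set is commonly followed as spheroids grow.

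RNA came from HSJD-DIPG-007, an established line of diffuse midline glioma (DMG) cells grown as spheroids. Its labelled genotype is H3F3A K27M, ACVR1 R206H and PIK3CA MIS in vehicle and treated cultures alike. LLY-283 inhibits PRMT5, an enzyme that dimethylates arginine symmetrically, and was used at the concentration giving 40% growth inhibition (GI40) against a vehicle control. Vehicle and LLY-283 are each represented by 3 libraries of day 0, 3 of day 5, 2 of day 7 and a single library of days 1, 2, 3 and 10, which makes 24 in all. The medium was replaced with a second dose after 5 days. Repeats within a group are called technical in the study, so p-values measure only the spread between these libraries. All of them come from 1 cell line. Library totals lay between 13835205 and 23190369 counts. The glioma markers OLIG2, OLIG1, PDGFRA, SOX2, SOX10, NES and CSPG4 summed to between 4140 and 4910 counts per 1000000 (CPM) over all libraries. NES and CSPG4 made up most of that sum, and SOX10 was nearly absent, at 0 to 0.603 CPM. Markers of microglia and macrophages summed to between 0.12 and 1.88 CPM. Summed fibroblast markers were uneven, at 115, 114 and 283 CPM in the vehicle libraries of day 5 and 208 to 228 CPM in those of LLY-283. Different genes made up these sums. Vehicle repeat 3 stood out in COL1A1, COL1A2 and FN1 (53.8, 36.9 and 60.4 CPM). LLY-283 stood out in POSTN, at 68.6 to 80.6 CPM against 20.2 to 29.4 CPM in vehicle. Outside day 5, COL1A1, COL1A2 and FN1 were also high in the LLY-283 library of day 2 (31.5, 16.2 and 26 CPM). The same held for vehicle day 7 repeat 1 (31.2, 17.4 and 30 CPM). At day 7, each library labelled repeat 2 resembled the other treatment group more than its own. The 2 libraries of each group at day 7 differed by a chi-square of 11.2 (vehicle) and 13.4 (LLY-283) per degree of freedom, against 1.65 to 3.79 at days 0 and 5. Fits that use day 7 libraries are given with and without those labelled repeat 2, except for the treatment difference at day 7 itself.

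Levels below are normalized CPM in the order of the repeats. Gene positions are those of the GENCODE annotation on GRCh38, the build of the deposited counts (hg38). Per kilobase of transcript, the mean over the 6 libraries of day 0 was highest for GAPDH at 4150 ± 145 CPM per kilobase (SD, n = 6), followed by ENO1 at 1410 ± 50.6, PKM at 878 ± 25.7 and LDHB at 792 ± 30.3. LDHB lay between 739 and 823 and PKM between 828 and 897 CPM per kilobase, so these neighbours in the order did not overlap. Among the enzyme genes of the pathway, ALDOC was lowest at 0.224 ± 0.0684 CPM per kilobase, and among the HIF targets CA9 was lowest at 0.0106 ± 0.0164.

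What LLY-283 did to these genes was asked first at day 5, where each treatment group has 3 libraries. The enzyme genes HK2, ALDOA, TPI1, GAPDH, PGK1, PGAM1 and ENO1 were lower under LLY-283, as were LDHA, LDHB, PDK1, VEGFA, SLC16A1, BNIP3 and P4HA1. HIF1A itself, PFKFB3, ADM and BNIP3L were higher. HIF1A averaged 418 ± 18.9 CPM in vehicle and 575 ± 33.8 CPM in LLY-283 (SD, n = 3 each), and PDK1 13.2 ± 0.568 and 9.19 ± 0.687 CPM. Of 41 members tested, 18 were called, 4 higher and 14 lower, against 26.1% of all 16491 genes tested (12% higher and 14.1% lower). A call means a Benjamini-Hochberg adjusted p under 0.01 in the quasi-likelihood test of edgeR. ALDOC and CA9 were too low to be tested. The members' median log2 difference was -0.074, beside 0.021 over all genes tested. The 2 groups of 3 libraries did not overlap for 27 members, 8 higher and 19 lower under LLY-283, where 46.3% of all genes did not overlap. In these bulk samples, fewer cells of a kind and less RNA per cell cannot be told apart. All 8 proliferation markers, MKI67 and TOP2A among them, were called lower at day 5, and their part in these differences was not tested.

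**Figure D1:**
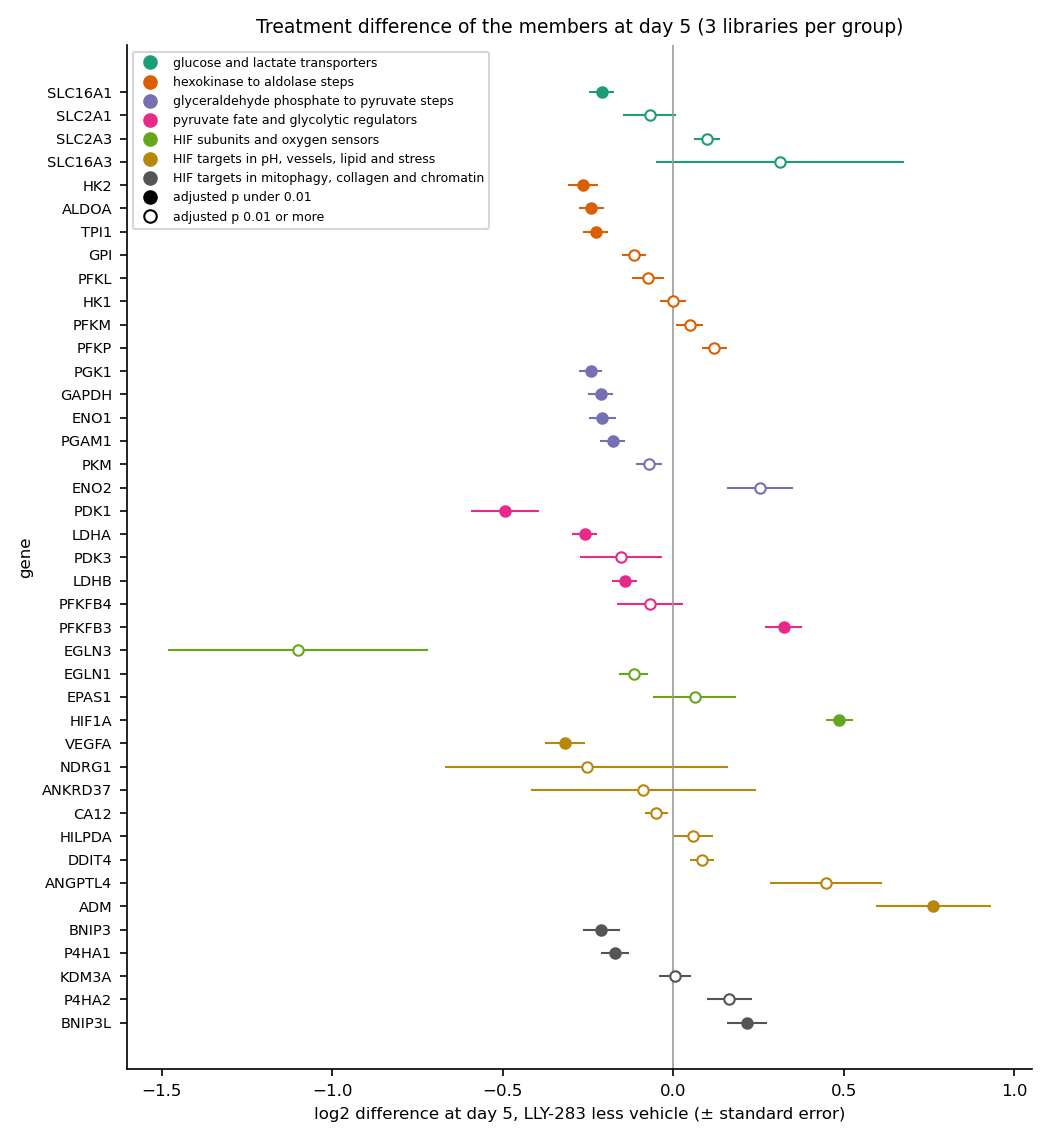
Each point is the log2 difference between 3 LLY-283 and 3 vehicle libraries at day 5 for 1 of the 41 members tested, with its standard error, coloured by role and filled where the adjusted p was under 0.01. Filled points to the right are HIF1A, PFKFB3, ADM and BNIP3L, and the other 14 filled points lie to the left of 0.

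Promoter sequences are shown for members of both directions, chosen after their values were seen. RefSeq promoters on GRCh38.p14, each 250 bases before to 50 bases after a gene start, were matched for 37 of the 43 symbols. They gave 65 promoters. The core letters of a HIF response element were searched as ACGTG and GCGTG on both strands. ACGTG stood in 40.0% of the members' promoters and in 21.4% of all 35116 promoters, GCGTG in 43.1% and 36.5%, and either in 69.2% and 48.4%. Below are the 250 bases before the start, 5′ to 3′ on the gene's strand, with every match in capitals (a match on the reverse strand reads CACGT or CACGC). Where a gene has several promoters, the one with most matches is printed. LDHA, PGK1, GAPDH and PDK1 were lower and PFKFB3 and ADM were higher under LLY-283 at day 5. A match is a description of letters, and no binding was measured.
LDHA promoter, GRCh38.p14 chr11:18394313-18394562, plus strand: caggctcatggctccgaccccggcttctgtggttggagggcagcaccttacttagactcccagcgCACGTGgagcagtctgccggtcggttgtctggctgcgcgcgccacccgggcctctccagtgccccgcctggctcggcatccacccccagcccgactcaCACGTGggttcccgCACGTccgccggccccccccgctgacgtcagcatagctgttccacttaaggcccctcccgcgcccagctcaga
PGK1 promoter, GRCh38.p14 chrX:78103998-78104247, plus strand: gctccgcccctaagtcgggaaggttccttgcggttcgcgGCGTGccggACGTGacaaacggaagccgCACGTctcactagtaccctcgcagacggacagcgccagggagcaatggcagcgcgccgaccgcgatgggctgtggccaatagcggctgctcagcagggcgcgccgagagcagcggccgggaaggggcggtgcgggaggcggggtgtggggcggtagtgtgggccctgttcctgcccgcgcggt
GAPDH promoter, GRCh38.p14 chr12:6535014-6535263, plus strand: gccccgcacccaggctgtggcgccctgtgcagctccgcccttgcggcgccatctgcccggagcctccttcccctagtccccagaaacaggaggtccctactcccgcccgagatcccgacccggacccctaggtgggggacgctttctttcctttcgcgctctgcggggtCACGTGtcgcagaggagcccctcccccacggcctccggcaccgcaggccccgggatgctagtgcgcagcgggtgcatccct
PDK1 promoter, GRCh38.p14 chr2:172555840-172556089, plus strand: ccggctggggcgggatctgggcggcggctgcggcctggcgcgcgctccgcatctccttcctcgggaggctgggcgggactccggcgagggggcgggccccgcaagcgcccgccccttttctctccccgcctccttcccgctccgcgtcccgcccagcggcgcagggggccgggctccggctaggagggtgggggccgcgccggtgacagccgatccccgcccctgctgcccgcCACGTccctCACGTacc
PFKFB3 promoter, GRCh38.p14 chr10:6202682-6202931, plus strand: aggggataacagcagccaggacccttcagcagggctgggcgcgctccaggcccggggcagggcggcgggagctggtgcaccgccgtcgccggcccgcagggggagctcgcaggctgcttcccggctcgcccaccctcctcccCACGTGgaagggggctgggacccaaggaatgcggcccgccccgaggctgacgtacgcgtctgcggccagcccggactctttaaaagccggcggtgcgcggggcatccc
ADM promoter, GRCh38.p14 chr11:10304823-10305072, plus strand: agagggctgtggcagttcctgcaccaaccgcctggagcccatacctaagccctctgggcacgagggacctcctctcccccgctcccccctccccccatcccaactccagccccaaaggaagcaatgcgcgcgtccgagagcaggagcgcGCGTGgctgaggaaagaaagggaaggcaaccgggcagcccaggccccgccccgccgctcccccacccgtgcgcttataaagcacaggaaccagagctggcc
All 6 windows held at least 1 match, which the choice of genes and promoters favoured, so they do not compare the 2 directions. The other promoter of PDK1 held 0 matches. EGLN3, P4HA2 and PGAM1 had 1 promoter each in the table, with neither set of letters in it.

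How the genes changed over spheroid culture was asked by comparing day 5 with day 0 in each treatment group. In the column names, libraries of days 0 to 3 carry numbers from a separate range than those of days 5 to 10. What the numbers stand for is not given, so time in culture and this split cannot be told apart. Among members called in vehicle libraries, DDIT4, EPAS1, SLC2A3, VEGFA and BNIP3L rose most, and NDRG1, ENO2, ANGPTL4, SLC2A1 and PDK1 fell most. Of 41 members tested, 25 were called in vehicle, 15 higher and 10 lower, against 38.9% of 17106 genes (22.2% higher, 16.7% lower). The members' median log2 change was 0.045 in vehicle, beside -0.015 over all genes tested. In LLY-283 libraries 25 of 41 were again called, 11 higher and 14 lower, against 42.4% of 17341 genes (22.9% higher, 19.5% lower). Their median was -0.096 beside 0.005 over all genes. Groups did not overlap for 29 members in vehicle (57.1% of all genes) and 33 in LLY-283 (57.6%). Of 8 proliferation markers, 6 were called higher in vehicle, and 5 higher and 2 lower in LLY-283, and their part in these changes was not tested. Within vehicle, leaving out 1 library lost the call of ENO1 (day 0 repeat 2 or 3, day 5 repeat 2 or 3), GAPDH (day 0 repeat 2, day 5 repeat 2 or 3), PKM (day 0 repeat 2, day 5 repeat 3), BNIP3 (day 0 repeat 2) or PFKFB3 (day 5 repeat 1), with adjusted p between 0.0109 and 0.0733. A fit that shared its spread with all 22 libraries of days 0 to 7 called 15 members, and 25 without the day 7 repeat 2 libraries. The share over all genes is not given here for either fit. Within LLY-283, only the call of P4HA1 was lost on leaving out 1 library (day 0 repeat 1, day 5 repeat 2 or day 5 repeat 3, adjusted p 0.0304, 0.0225 and 0.0188).

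**Figure D2:**
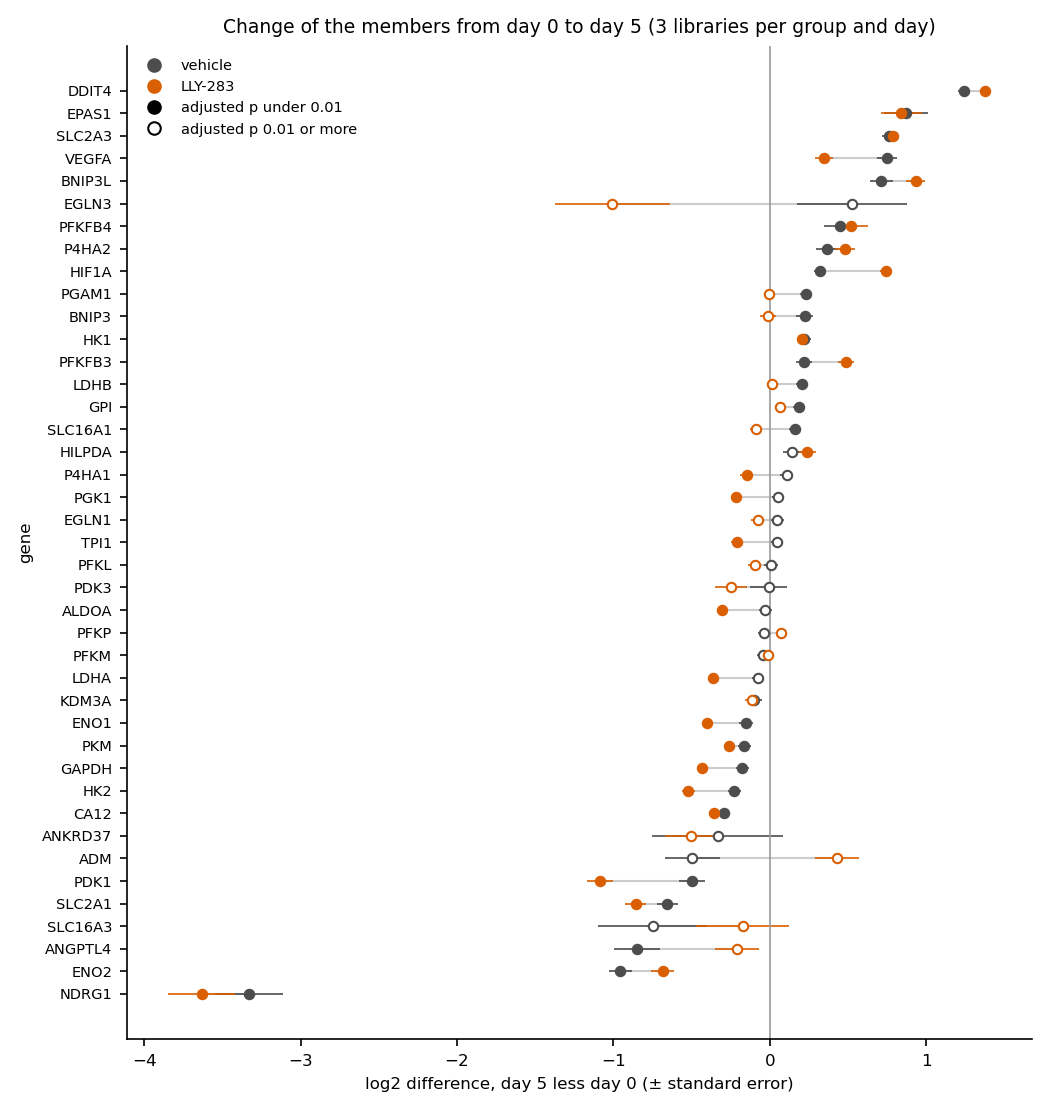
Log2 change from day 0 to day 5 of the 41 members tested, in 3 vehicle libraries a day (grey) and 3 LLY-283 libraries a day (orange), with standard errors; filled points had an adjusted p under 0.01. NDRG1 is lowest in both groups, DDIT4 is highest in both, and EGLN3, HIF1A, VEGFA, PDK1 and ADM show wide gaps between the groups. The gap is widest for EGLN3, a gene of low counts that was called in neither group.

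Whether the change over culture differed between the groups was tested as an interaction, the treatment difference at day 5 less that at day 0. HIF1A, ADM and PFKFB3 gained more under LLY-283, and HK2, ALDOA, TPI1, GAPDH, PGK1, PGAM1, ENO1, LDHA, PDK1, VEGFA, SLC16A1 and P4HA1 gained less or lost more. The other 7 enzyme genes tested between hexokinase and pyruvate kinase were not called. Of 41 members tested, 15 were called, 3 higher and 12 lower, against 14.9% of 18369 genes (6.78% higher, 8.15% lower). The members' median was -0.118 and that of all genes 0.04. PFKFB3 lost its call under DESeq2 (adjusted p = 0.0321), with DESeq2 size factors (0.0129) and on leaving out any of 9 of the 12 libraries (0.0132 to 0.0267). ADM lost it without vehicle day 5 repeat 1 (adjusted p = 0.0117). A fit over all 22 libraries of days 0 to 7 called 0 members and 51 of 20756 genes, where the main comparison of 12 libraries called 15. Without the day 7 repeat 2 libraries that fit called 16 members, PFKFB3 not among them (adjusted p = 0.0254). Its share over all genes is not given here.

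Transporters moved apart from each other. SLC2A1, which encodes GLUT1, the main glucose importer of most cells (ENSG00000117394, chr1:42925353-42958893, minus strand), read 29.3, 30.6 and 30.8 CPM in vehicle and 35.2, 30.2 and 34.1 CPM in LLY-283 at day 0 and 20.6, 18.9 and 18.5 CPM in vehicle and 18.7, 17.1 and 18.6 CPM in LLY-283 at day 5. All 6 values of day 5 lay below all 6 of day 0, and the treatment groups overlapped at day 5. The change from day 0 was -0.66 (adjusted p = 2.91e-09) in vehicle and -0.86 (adjusted p = 1.06e-10) in LLY-283, and the treatment difference at day 5 was -0.07 on the log2 scale (SE 0.0774, adjusted p = 0.515). Other days gave 26.2, 24.8, 23.1 and 20.8 CPM in vehicle and 24, 24.7, 25.1 and 18.3 CPM in LLY-283 on days 1, 2, 3 and 10, and 19.6 and 21 CPM in vehicle and 18.5 and 21.3 CPM in LLY-283 at day 7. SLC2A3 (GLUT3), the high-affinity glucose transporter of neurons (ENSG00000059804, chr12:7919230-8019007, minus strand), went the other way, with 76.3, 73 and 71.5 CPM in vehicle and 73.9, 79.5 and 80 CPM in LLY-283 at day 0 and 127, 128 and 123 CPM in vehicle and 134, 130 and 134 CPM in LLY-283 at day 5. The days did not overlap in either group, and at day 5 LLY-283 lay above vehicle without overlap. Its change over culture was 0.76 (adjusted p = 7.6e-15) in vehicle and 0.79 (adjusted p = 1.15e-14) in LLY-283, and the treatment difference was not called at 0.10 on the log2 scale (SE 0.0375, adjusted p = 0.0387). SLC2A3 stood at 73.6, 102, 105 and 204 CPM in vehicle and 73.2, 99.5, 161 and 171 CPM in LLY-283 on days 1, 2, 3 and 10, and 130 and 139 CPM in vehicle and 119 and 155 CPM in LLY-283 at day 7. The vehicle library of day 10 held the highest value of all 24. SLC16A1 (MCT1), which carries lactate and pyruvate across the membrane (ENSG00000155380, chr1:112911847-112957593, minus strand), was at 222, 242 and 244 CPM in vehicle and 253, 235 and 245 CPM in LLY-283 at day 0 and 265, 268 and 267 CPM in vehicle and 241, 220 and 219 CPM in LLY-283 at day 5. All LLY-283 values of day 5 were below all vehicle values. It was called lower under LLY-283 at -0.21 on the log2 scale (SE 0.0364, adjusted p = 4e-05), after a rise of 0.16 (adjusted p = 0.000721) in vehicle and a change of -0.09 (adjusted p = 0.0401) in LLY-283. Elsewhere it read 262, 245, 246 and 228 CPM in vehicle and 255, 219, 209 and 220 CPM in LLY-283 on days 1, 2, 3 and 10, and 262 and 248 CPM in vehicle and 220 and 265 CPM in LLY-283 at day 7. SLC16A3 (MCT4), the lactate exporter of highly glycolytic cells, was nearly silent at from 0.525 to 1.65 CPM and was not called.

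Upper glycolysis held 3 called genes at day 5, all lower. HK2, the inducible hexokinase that traps glucose in the cell (ENSG00000159399, chr2:74834127-74893359, plus strand), read 112, 120 and 117 CPM in vehicle and 122, 115 and 119 CPM in LLY-283 at day 0 and 103, 96.1 and 102 CPM in vehicle and 82.6, 85.8 and 77.5 CPM in LLY-283 at day 5. Vehicle and LLY-283 did not overlap at day 5, and each lay below its own day 0 values. The treatment difference was -0.27 on the log2 scale (SE 0.0441, adjusted p = 2.23e-05), with changes over culture of -0.23 (adjusted p = 3.3e-05) in vehicle and -0.52 (adjusted p = 6.28e-11) in LLY-283. HK2 was at 102, 102, 110 and 82.3 CPM in vehicle and 94.2, 95.5, 89.4 and 73.5 CPM in LLY-283 on days 1, 2, 3 and 10, and 97.8 and 82.8 CPM in vehicle and 82.4 and 99.9 CPM in LLY-283 at day 7. HK1, the hexokinase that most tissues express (ENSG00000156515, chr10:69269984-69401884, plus strand), had 167, 186 and 184 CPM in vehicle and 180, 177 and 188 CPM in LLY-283 at day 0 and 216, 218 and 198 CPM in vehicle and 211, 210 and 200 CPM in LLY-283 at day 5. The treatment groups of day 5 overlapped fully, above all day 0 values of their own group. Its treatment difference was -0.001 on the log2 scale (SE 0.0384, adjusted p = 0.983), and it rose by 0.22 (adjusted p = 0.000123) in vehicle and 0.20 (adjusted p = 1.55e-05) in LLY-283. HK1 reached 217, 176, 179 and 261 CPM in vehicle and 205, 179, 164 and 225 CPM in LLY-283 on days 1, 2, 3 and 10, and 238 and 228 CPM in vehicle and 233 and 220 CPM in LLY-283 at day 7. ALDOA, the main aldolase, which splits fructose bisphosphate (ENSG00000149925, chr16:30064164-30070457, plus strand), measured 421, 462 and 476 CPM in vehicle and 469, 458 and 470 CPM in LLY-283 at day 0 and 464, 458 and 422 CPM in vehicle and 379, 371 and 368 CPM in LLY-283 at day 5. Only the LLY-283 libraries of day 5 lay below the day 0 range, and they did not overlap those of vehicle. ALDOA was called lower at -0.24 on the log2 scale (SE 0.0366, adjusted p = 6.45e-06), with a change over culture of -0.03 (adjusted p = 0.602) in vehicle and -0.30 (adjusted p = 5.06e-09) in LLY-283. Its other libraries gave 469, 438, 453 and 384 CPM in vehicle and 442, 394, 358 and 382 CPM in LLY-283 on days 1, 2, 3 and 10, and 489 and 462 CPM in vehicle and 404 and 469 CPM in LLY-283 at day 7. TPI1, which interconverts the triose phosphates (ENSG00000111669, chr12:6867119-6870948, plus strand), stood at 762, 808 and 830 CPM in vehicle and 848, 801 and 814 CPM in LLY-283 at day 0 and 859, 832 and 811 CPM in vehicle and 739, 684 and 678 CPM in LLY-283 at day 5. Again the LLY-283 values of day 5 were the lower ones, with no overlap. The difference was -0.23 on the log2 scale (SE 0.0359, adjusted p = 1.07e-05), and the changes over culture were 0.04 (adjusted p = 0.337) in vehicle and -0.21 (adjusted p = 6.75e-06) in LLY-283. TPI1 showed 826, 792, 819 and 628 CPM in vehicle and 778, 707, 676 and 683 CPM in LLY-283 on days 1, 2, 3 and 10, and 819 and 874 CPM in vehicle and 705 and 829 CPM in LLY-283 at day 7. GPI, the isomerase after hexokinase, ranged from 407 to 506 CPM with a treatment difference of -0.12 on the log2 scale (SE 0.0354, adjusted p = 0.0115). The phosphofructokinase genes PFKL, PFKM and PFKP, which commit sugar to glycolysis, ranged from 55.5 to 80.3 CPM, from 145 to 214 CPM and from 131 to 183 CPM and had treatment differences of -0.07, 0.05 and 0.12, none called. ALDOC, the aldolase of astrocytes and neurons, was at from 0.0522 to 0.554 CPM.

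From glyceraldehyde phosphate to pyruvate, 4 of 6 genes were called lower at day 5 and none higher. GAPDH, the dehydrogenase that yields the first NADH of the pathway (ENSG00000111640, chr12:6534512-6538374, plus strand), read 4990, 5300 and 5440 CPM in vehicle and 5520, 5350 and 5410 CPM in LLY-283 at day 0 and 4800, 4710 and 4540 CPM in vehicle and 4110, 3910 and 3900 CPM in LLY-283 at day 5. Each group of day 5 lay below its day 0 values, and LLY-283 lay below vehicle without overlap. The treatment difference was -0.21 on the log2 scale (SE 0.0364, adjusted p = 3.17e-05), and GAPDH fell over culture, at -0.18 (adjusted p = 0.00074) in vehicle and -0.43 (adjusted p = 1.32e-11) in LLY-283 on the log2 scale. Counts of 65 pseudogene rows came to 0.534% to 0.702% of its own. It was 5190, 4640, 4790 and 4120 CPM in vehicle and 4840, 4250, 4110 and 4120 CPM in LLY-283 on days 1, 2, 3 and 10, and 4830 and 4950 CPM in vehicle and 4400 and 4780 CPM in LLY-283 at day 7. PGK1, which makes the first ATP of the payoff phase (ENSG00000102144, chrX:77910739-78129295, plus strand), had 418, 457 and 468 CPM in vehicle and 466, 458 and 454 CPM in LLY-283 at day 0 and 482, 467 and 458 CPM in vehicle and 406, 386 and 377 CPM in LLY-283 at day 5. LLY-283 values of day 5 were below every other value of days 0 and 5. PGK1 was called lower at -0.24 on the log2 scale (SE 0.0349, adjusted p = 2.86e-06), with changes over culture of 0.05 (adjusted p = 0.27) in vehicle and -0.22 (adjusted p = 1.8e-06) in LLY-283. Its remaining values were 479, 461, 458 and 370 CPM in vehicle and 472, 432, 442 and 373 CPM in LLY-283 on days 1, 2, 3 and 10, and 474 and 493 CPM in vehicle and 422 and 481 CPM in LLY-283 at day 7. The annotation places exons of ATP7A over those of PGK1 on the same strand. PGAM1, a phosphoglycerate mutase (ENSG00000171314, chr10:97426191-97433444, plus strand), gave 337, 355 and 364 CPM in vehicle and 372, 363 and 368 CPM in LLY-283 at day 0 and 429, 411 and 411 CPM in vehicle and 388, 353 and 348 CPM in LLY-283 at day 5. Vehicle libraries of day 5 exceeded all others of both days. The treatment difference was -0.18 on the log2 scale (SE 0.0369, adjusted p = 0.000341), and vehicle rose by 0.23 (adjusted p = 6.36e-06) while the change in LLY-283 was -0.003 (adjusted p = 0.948). PGAM1 was at 416, 396, 403 and 321 CPM in vehicle and 382, 367, 343 and 343 CPM in LLY-283 on days 1, 2, 3 and 10, and 431 and 438 CPM in vehicle and 397 and 412 CPM in LLY-283 at day 7. ENO1, the common enolase (ENSG00000074800, chr1:8861000-8879190, minus strand), measured 2340, 2490 and 2560 CPM in vehicle and 2590, 2510 and 2560 CPM in LLY-283 at day 0 and 2340, 2270 and 2100 CPM in vehicle and 1980, 1870 and 1860 CPM in LLY-283 at day 5. At day 5 LLY-283 was below vehicle without overlap. ENO1 differed by -0.21 on the log2 scale (SE 0.0388, adjusted p = 9.81e-05), after changes of -0.15 (adjusted p = 0.00382) in vehicle and -0.40 (adjusted p = 5.44e-11) in LLY-283. On the other days ENO1 read 2310, 2180, 2250 and 1910 CPM in vehicle and 2140, 1960, 1860 and 1920 CPM in LLY-283 on days 1, 2, 3 and 10, and 2290 and 2270 CPM in vehicle and 1960 and 2280 CPM in LLY-283 at day 7. ENO2, the enolase of neurons and a HIF target (ENSG00000111674, chr12:6913745-6923698, plus strand), was at 29, 27.8 and 28.2 CPM in vehicle and 27.3, 29.3 and 28.1 CPM in LLY-283 at day 0 and 13.2, 16 and 15.3 CPM in vehicle and 15.2, 17.7 and 18.9 CPM in LLY-283 at day 5. Every value of day 5 was below every value of day 0, and the treatment groups overlapped. Its treatment difference was 0.25 on the log2 scale (SE 0.0956, adjusted p = 0.0386), and it fell over culture, at -0.96 (adjusted p = 2.04e-11) in vehicle and -0.68 (adjusted p = 3.04e-08) in LLY-283 on the log2 scale. ENO2 reached 20, 19.8, 17.6 and 27.2 CPM in vehicle and 19.4, 16.6, 30.3 and 20.9 CPM in LLY-283 on days 1, 2, 3 and 10, and 11.6 and 12.4 CPM in vehicle and 8.54 and 16.9 CPM in LLY-283 at day 7. PKM, pyruvate kinase, ranged from 1450 to 2070 CPM, with a treatment difference of -0.07 on the log2 scale (SE 0.0383, adjusted p = 0.15).

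Lactate dehydrogenase genes and PDK1 were lower and PFKFB3 was higher under LLY-283. LDHA, the subunit that favours conversion of pyruvate to lactate (ENSG00000134333, chr11:18394560-18408425, plus strand), read 424, 446 and 470 CPM in vehicle and 468, 457 and 449 CPM in LLY-283 at day 0 and 427, 420 and 440 CPM in vehicle and 374, 341 and 342 CPM in LLY-283 at day 5. The LLY-283 libraries of day 5 lay below all other libraries of days 0 and 5. LDHA differed by -0.26 on the log2 scale (SE 0.0361, adjusted p = 1.77e-06), with a change over culture of -0.07 (adjusted p = 0.113) in vehicle and -0.36 (adjusted p = 1.61e-09) in LLY-283. Its values were 456, 408, 420 and 372 CPM in vehicle and 437, 396, 380 and 356 CPM in LLY-283 on days 1, 2, 3 and 10, and 442 and 428 CPM in vehicle and 363 and 449 CPM in LLY-283 at day 7. LDHB, the subunit that favours the reverse step (ENSG00000111716, chr12:21635342-21757857, minus strand), had 964, 1020 and 1050 CPM in vehicle and 1070, 1020 and 1060 CPM in LLY-283 at day 0 and 1220, 1170 and 1160 CPM in vehicle and 1120, 1030 and 997 CPM in LLY-283 at day 5. Vehicle was above LLY-283 at day 5 without overlap. The difference was -0.14 on the log2 scale (SE 0.0374, adjusted p = 0.00323), and the call was lost on leaving out, of the day 5 libraries, repeat 1 or 2 of vehicle or repeat 2 or 3 of LLY-283 (adjusted p 0.0173, 0.0127, 0.0291 and 0.0388). LDHB stood at 1130, 1090, 1110 and 1050 CPM in vehicle and 1040, 1010, 936 and 1080 CPM in LLY-283 on days 1, 2, 3 and 10, and 1190 and 1300 CPM in vehicle and 1090 and 1170 CPM in LLY-283 at day 7. PDK1, a kinase that switches off pyruvate dehydrogenase (ENSG00000152256, chr2:172555373-172608669, plus strand), was at 18.5, 17.7 and 18.9 CPM in vehicle and 19.5, 19 and 20.6 CPM in LLY-283 at day 0 and 12.7, 13.8 and 12.9 CPM in vehicle and 9.91, 9.1 and 8.55 CPM in LLY-283 at day 5. Both groups of day 5 were below day 0, LLY-283 lowest, with no overlap among them. PDK1 was called at -0.49 on the log2 scale (SE 0.1, adjusted p = 0.000253), and its change over culture was -0.50 (adjusted p = 8.76e-06) in vehicle and -1.08 (adjusted p = 5.24e-11) in LLY-283. PDK1 gave 18.6, 16.8, 14.8 and 13.6 CPM in vehicle and 16.6, 15, 15.2 and 10.2 CPM in LLY-283 on days 1, 2, 3 and 10, and 15.2 and 10.3 CPM in vehicle and 11.1 and 17.6 CPM in LLY-283 at day 7. The fit shared over 22 libraries did not call the treatment difference of PDK1 (adjusted p = 0.0209), VEGFA (0.229), SLC16A1 (0.0102), LDHB (0.0338), BNIP3 (0.0306) or BNIP3L (0.0652). Without the day 7 repeat 2 libraries it lost, of the 18 calls, that of BNIP3L alone (adjusted p = 0.0254). PFKFB3, which makes the activator of phosphofructokinase (ENSG00000170525, chr10:6144934-6254644, plus strand), read 43.6, 43.6 and 44.2 CPM in vehicle and 44, 45.8 and 47.4 CPM in LLY-283 at day 0 and 54.6, 50.5 and 49 CPM in vehicle and 68, 63.6 and 58.5 CPM in LLY-283 at day 5. LLY-283 libraries of day 5 were the highest of both days, with no overlap. Its difference was 0.32 on the log2 scale (SE 0.0539, adjusted p = 2.5e-05), and it rose by 0.22 (adjusted p = 0.000915) in vehicle and 0.49 (adjusted p = 1.1e-08) in LLY-283. PFKFB3 came to 44.7, 44.3, 44.6 and 71.3 CPM in vehicle and 41.4, 39.5, 49 and 72 CPM in LLY-283 on days 1, 2, 3 and 10, and 49.3 and 56.2 CPM in vehicle and 56.2 and 49 CPM in LLY-283 at day 7. PFKFB4, its relative, ranged from 7.17 to 14.6 CPM and rose over culture by 0.45 (adjusted p = 0.000343) in vehicle and 0.52 (adjusted p = 0.000175) in LLY-283, with a treatment difference of -0.07 on the log2 scale (SE 0.0966, adjusted p = 0.621). PDK3 ranged from 6.42 to 10.2 CPM and was not called.

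**Figure D3:**
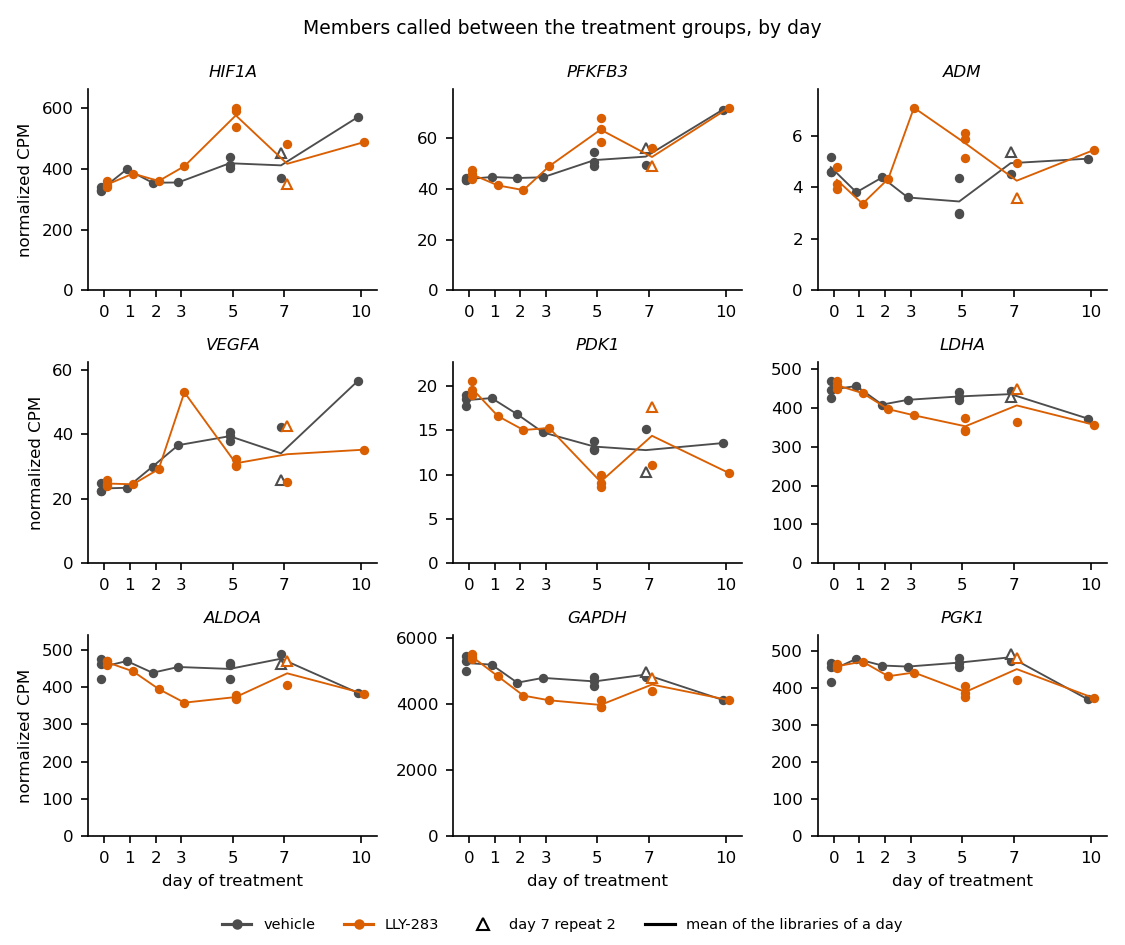
Normalized CPM of 9 members against day of treatment, with 1 point per library, vehicle in grey and LLY-283 in orange, lines through the mean of a day and open triangles for the day 7 libraries labelled repeat 2. At day 5 the 3 LLY-283 points lie above those of vehicle for HIF1A, PFKFB3 and ADM and below for the other 6, and at day 7 the triangles of HIF1A, VEGFA and PDK1 sit on the opposite side.

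HIF subunit and sensor genes were led by HIF1A. HIF1A, the oxygen-regulated subunit of HIF-1, whose control by oxygen acts on the protein (ENSG00000100644, chr14:61695513-61748259, plus strand), read 329, 325 and 339 CPM in vehicle and 360, 340 and 345 CPM in LLY-283 at day 0 and 403, 412 and 439 CPM in vehicle and 601, 588 and 537 CPM in LLY-283 at day 5. All LLY-283 values of day 5 lay above all vehicle values, which in turn lay above day 0. The treatment difference was 0.49 on the log2 scale (SE 0.0397, adjusted p = 5.04e-10), and HIF1A rose over culture by 0.32 (adjusted p = 5.25e-08) in vehicle and 0.74 (adjusted p = 3.96e-14) in LLY-283. HIF1A was at 398, 354, 355 and 570 CPM in vehicle and 384, 360, 408 and 488 CPM in LLY-283 on days 1, 2, 3 and 10, and 369 and 453 CPM in vehicle and 481 and 351 CPM in LLY-283 at day 7. Exons of an unnamed gene (ENSG00000258964) lie over those of HIF1A on its strand. EPAS1, which encodes the HIF-2 alpha subunit (ENSG00000116016, chr2:46293667-46386697, plus strand), was far lower, with 4.43, 4.12 and 4.75 CPM in vehicle and 4.03, 4.46 and 5.74 CPM in LLY-283 at day 0 and 8.88, 6.83 and 8.86 CPM in vehicle and 8.22, 8.68 and 8.3 CPM in LLY-283 at day 5. Days did not overlap, and treatment groups did. It rose by 0.87 (adjusted p = 6.79e-06) in vehicle and 0.84 (adjusted p = 6.61e-06) in LLY-283, with a treatment difference of 0.06 on the log2 scale (SE 0.122, adjusted p = 0.723). EPAS1 showed 6.09, 7.44, 5.45 and 13.1 CPM in vehicle and 6.39, 7.02, 7.26 and 12.2 CPM in LLY-283 on days 1, 2, 3 and 10, and 8.14 and 8.09 CPM in vehicle and 7.34 and 9.27 CPM in LLY-283 at day 7. EGLN3, an oxygen-sensing prolyl hydroxylase that HIF itself induces (ENSG00000129521, chr14:33924227-34462774, minus strand), had 0.705, 0.63 and 0.766 CPM in vehicle and 0.835, 1.3 and 0.742 CPM in LLY-283 at day 0 and 1.12, 1.18 and 0.739 CPM in vehicle and 0.525, 0.473 and 0.4 CPM in LLY-283 at day 5. At these low levels LLY-283 lay below vehicle at day 5 without overlap. The difference was not called at -1.10 on the log2 scale (SE 0.382, adjusted p = 0.0242), and its copies held up to 23.1% of its counts. Other libraries gave 0.832, 0.525, 0.551 and 0.761 CPM in vehicle and 0.627, 0.413, 0.61 and 0.504 CPM in LLY-283 on days 1, 2, 3 and 10, and 0.44 and 0.47 CPM in vehicle and 0.164 and 0.869 CPM in LLY-283 at day 7. EGLN1, the main HIF prolyl hydroxylase, ranged from 99.6 to 133 CPM, with a treatment difference of -0.12 on the log2 scale (SE 0.0439, adjusted p = 0.0381).

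Targets in vessels, pH, lipid and stress went in different directions. VEGFA, the vascular growth factor (ENSG00000112715, chr6:43770184-43786487, plus strand), read 22.2, 22.5 and 24.8 CPM in vehicle and 23.8, 24.6 and 25.7 CPM in LLY-283 at day 0 and 37.9, 39.5 and 40.8 CPM in vehicle and 30.1, 32.5 and 30.3 CPM in LLY-283 at day 5. Both groups of day 5 were above day 0, and vehicle lay above LLY-283 without overlap. VEGFA rose over culture by 0.75 (adjusted p = 5.01e-11) in vehicle and 0.35 (adjusted p = 2.37e-05) in LLY-283, and the treatment difference was -0.32 on the log2 scale (SE 0.0585, adjusted p = 8.18e-05). Its other values were 23.4, 29.9, 36.6 and 56.6 CPM in vehicle and 24.5, 29.2, 53 and 35.2 CPM in LLY-283 on days 1, 2, 3 and 10, and 42.3 and 25.8 CPM in vehicle and 25.1 and 42.5 CPM in LLY-283 at day 7. ADM, the vasodilator peptide adrenomedullin (ENSG00000148926, chr11:10305073-10307397, plus strand), was at 4.58, 5.18 and 4.6 CPM in vehicle and 4.13, 3.95 and 4.8 CPM in LLY-283 at day 0 and 2.98, 3.02 and 4.36 CPM in vehicle and 5.89, 5.15 and 6.1 CPM in LLY-283 at day 5. LLY-283 values of day 5 exceeded all vehicle values of that day. ADM was called higher at 0.76 on the log2 scale (SE 0.169, adjusted p = 0.000703), and the call was lost without vehicle day 5 repeat 1 (adjusted p = 0.0114). Neither change over culture was called, at -0.50 (adjusted p = 0.0195) in vehicle and 0.43 (adjusted p = 0.0132) in LLY-283. ADM reached 3.81, 4.39, 3.61 and 5.12 CPM in vehicle and 3.37, 4.34, 7.1 and 5.45 CPM in LLY-283 on days 1, 2, 3 and 10, and 4.51 and 5.37 CPM in vehicle and 4.93 and 3.59 CPM in LLY-283 at day 7. DDIT4 (REDD1), a stress-induced inhibitor of mTORC1 (ENSG00000168209, chr10:72273919-72276036, plus strand), had 104, 108 and 105 CPM in vehicle and 103, 98.5 and 105 CPM in LLY-283 at day 0 and 246, 261 and 249 CPM in vehicle and 270, 266 and 252 CPM in LLY-283 at day 5. Values of day 5 were all above those of day 0, and the treatment groups overlapped. It rose by 1.24 (adjusted p = 3.62e-20) in vehicle and 1.38 (adjusted p = 1.02e-19) in LLY-283, with a treatment difference of 0.08 on the log2 scale (SE 0.0362, adjusted p = 0.0702). DDIT4 was already at 256, 228, 202 and 334 CPM in vehicle and 234, 219, 246 and 313 CPM in LLY-283 on days 1, 2, 3 and 10, and 261 and 332 CPM in vehicle and 275 and 262 CPM in LLY-283 at day 7. Both libraries of day 1 were above all 6 libraries of day 0. NDRG1, a stress-response gene induced by hypoxia and by metal loss, moved the opposite way, from 7, 6.35 and 6.18 CPM in vehicle and 7.51, 6.1 and 6.73 CPM in LLY-283 at day 0 to 0.497, 0.657 and 0.812 CPM in vehicle and 0.408, 0.684 and 0.5 CPM in LLY-283 at day 5. No value of day 5 came near those of day 0, and the treatment groups overlapped. NDRG1 fell over culture, at -3.33 (adjusted p = 4.98e-13) in vehicle and -3.63 (adjusted p = 5.43e-13) in LLY-283 on the log2 scale, and the treatment difference was -0.25 on the log2 scale (SE 0.415, adjusted p = 0.669). Libraries of the other days held 1.05, 1, 0.612 and 0.415 CPM in vehicle and 1.08, 0.774, 2.88 and 0.229 CPM in LLY-283 on days 1, 2, 3 and 10, and 0.88 and 0.365 CPM in vehicle and 0.493 and 0.406 CPM in LLY-283 at day 7. CA12, a membrane carbonic anhydrase, ranged from 298 to 405 CPM and fell over culture, at -0.29 (adjusted p = 8.25e-08) in vehicle and -0.36 (adjusted p = 5.58e-10) in LLY-283 on the log2 scale. ANGPTL4, a secreted inhibitor of lipoprotein lipase, ranged from 2.81 to 8.82 CPM, fell over culture in vehicle, at -0.85 (adjusted p = 1.87e-05), and had an uncalled treatment difference of 0.45 on the log2 scale (SE 0.165, adjusted p = 0.0344). HILPDA, a lipid droplet protein, ranged from 29 to 36.4 CPM and rose by 0.24 (adjusted p = 0.000579) in LLY-283, and ANKRD37 ranged from 1.49 to 5.14 CPM with no call.

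**Figure D4:**
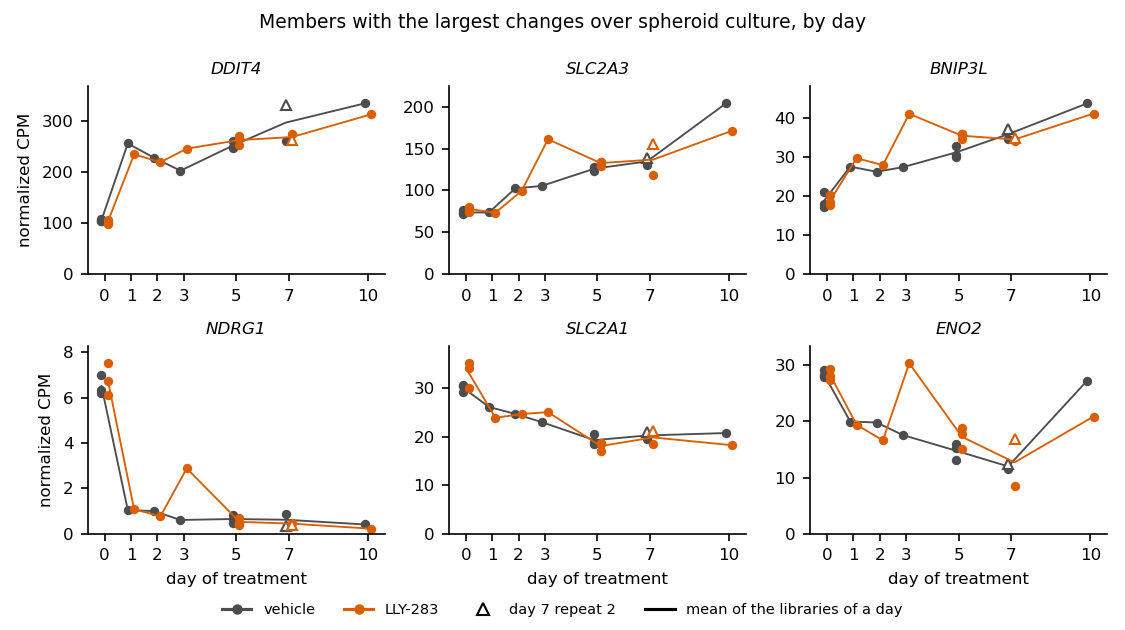
Normalized CPM of 6 members against day of treatment, drawn as in the plot of members called between the treatment groups, with 1 point per library and lines through the mean of a day. DDIT4, SLC2A3 and BNIP3L lie higher at day 5 than at day 0 in both groups, and NDRG1, SLC2A1 and ENO2 lie lower.

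In mitophagy, collagen and chromatin, the 2 paralogues of mitophagy were called in opposite directions. BNIP3, a receptor that marks mitochondria for removal (ENSG00000176171, chr10:131967684-131981967, minus strand), read 39.6, 37.4 and 40.3 CPM in vehicle and 40.7, 37.6 and 41.4 CPM in LLY-283 at day 0 and 47.5, 44.7 and 45.9 CPM in vehicle and 40.5, 39.7 and 37.3 CPM in LLY-283 at day 5. LLY-283 was below vehicle at day 5 without overlap. The difference was -0.21 on the log2 scale (SE 0.0533, adjusted p = 0.00243), and the call was lost under DESeq2 (adjusted p = 0.0147) and on leaving out, at day 5, repeat 1 of vehicle or repeat 3 of LLY-283 (adjusted p 0.0144 and 0.0215). BNIP3 was at 43.2, 42.6, 42.3 and 45.5 CPM in vehicle and 44.2, 37.3, 46.6 and 36.8 CPM in LLY-283 on days 1, 2, 3 and 10, and 48.9 and 43 CPM in vehicle and 36.7 and 46.2 CPM in LLY-283 at day 7, and pseudogene rows held 4.61% to 12.1% of its counts. BNIP3L (NIX), its paralogue, had 17.2, 21 and 18 CPM in vehicle and 18.6, 20.2 and 17.8 CPM in LLY-283 at day 0 and 30.1, 30.6 and 32.8 CPM in vehicle and 36, 34.5 and 35.8 CPM in LLY-283 at day 5. LLY-283 was above vehicle at day 5, and both were above day 0, without overlap. BNIP3L rose over culture by 0.71 (adjusted p = 3.3e-09) in vehicle and 0.93 (adjusted p = 2.96e-12) in LLY-283. Its treatment difference was 0.21 on the log2 scale (SE 0.0587, adjusted p = 0.00471), and the call was lost under DESeq2 (adjusted p = 0.044) and without any 1 library of day 5 other than vehicle repeat 3 (adjusted p 0.0109 to 0.0537). BNIP3L gave 27.6, 26.2, 27.4 and 43.8 CPM in vehicle and 29.7, 27.9, 41.1 and 41.2 CPM in LLY-283 on days 1, 2, 3 and 10, and 34.5 and 37.2 CPM in vehicle and 34.2 and 34.8 CPM in LLY-283 at day 7. P4HA1, a subunit of the collagen prolyl hydroxylase (ENSG00000122884, chr10:73007217-73096974, minus strand), stood at 78.7, 82.2 and 80.6 CPM in vehicle and 89.3, 84.1 and 84 CPM in LLY-283 at day 0 and 86.1, 89.2 and 87.5 CPM in vehicle and 80, 75.2 and 74.5 CPM in LLY-283 at day 5. LLY-283 lay below vehicle at day 5 without overlap. P4HA1 differed by -0.17 on the log2 scale (SE 0.0421, adjusted p = 0.00197), a call lost on leaving out, at day 5, repeat 2 of vehicle or repeat 2 or 3 of LLY-283 (adjusted p 0.0115, 0.0148 and 0.0134). P4HA1 read 86.1, 89.9, 92.8 and 87.5 CPM in vehicle and 93.2, 88.4, 87.6 and 78.7 CPM in LLY-283 on days 1, 2, 3 and 10, and 92.5 and 91.5 CPM in vehicle and 82.9 and 91.6 CPM in LLY-283 at day 7. P4HA2, its alternative subunit (ENSG00000072682, chr5:132190147-132295315, minus strand), measured 17.9, 18.7 and 17.8 CPM in vehicle and 18.5, 20.4 and 17.9 CPM in LLY-283 at day 0 and 24.1, 23.9 and 23 CPM in vehicle and 26.4, 25.1 and 26.6 CPM in LLY-283 at day 5. Both groups were above day 0, and LLY-283 lay above vehicle without overlap. P4HA2 rose by 0.37 (adjusted p = 6.67e-05) in vehicle and 0.48 (adjusted p = 1.07e-06) in LLY-283, and the treatment difference was not called at 0.16 on the log2 scale (SE 0.0654, adjusted p = 0.05). P4HA2 came to 18.4, 20.7, 21.8 and 44 CPM in vehicle and 19.6, 23.2, 27.3 and 38.3 CPM in LLY-283 on days 1, 2, 3 and 10, and 26 and 26 CPM in vehicle and 27.6 and 24.6 CPM in LLY-283 at day 7. KDM3A, a histone demethylase induced by HIF, ranged from 53 to 68.5 CPM with no call.

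At day 0, before any time under treatment, the groups served as background. None of 41 members was called by edgeR or DESeq2 (2 with an unadjusted p under 0.05), against 0.0169% of 17780 genes. The groups did not overlap for 3 members, HIF1A, PDK1 and P4HA1, all higher in LLY-283, where 11.9% of all genes did not overlap. The log2 difference at day 0 was above 0 for 33 of the 41 members and for 8925 of the 17780 genes. The interaction subtracts these day 0 differences.

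At day 7 the comparison by label gave no call. None of 39 members was called between the treatment groups by edgeR or DESeq2 (0 with an unadjusted p under 0.05), against 0.0% of 16826 genes. Without the repeat 2 libraries, each day 7 library stood alone in its group, so no call is counted there. In the libraries labelled repeat 1, HIF1A was higher and VEGFA and PDK1 lower in LLY-283 than in vehicle, and in those labelled repeat 2 all 3 ran the other way. Not every member called at day 5 did so. GAPDH, PGK1, TPI1, PGAM1, LDHB and BNIP3L were lower in LLY-283 under both repeat numbers, and the rest changed direction between them. Day 7 against day 5 over both groups, which spans the medium change, called 0 of 41 members by edgeR and DESeq2 (8 with an unadjusted p under 0.05), against 0.0166% of 18071 genes. It called 2 members without the repeat 2 libraries of day 7, a fit whose share over all genes is not given here. Over the 22 libraries of days 0 to 7, the treatment-by-day interaction called 1 member by DESeq2, and the DESeq2 share over all genes is not given here. By edgeR that interaction called 0 of 43 members (15 with an unadjusted p under 0.05), against 0.0289% of 20756 genes. Without both day 7 repeat 2 libraries it called 17 of 43 members, against 9.66% of 20714 genes. Days 1, 2, 3 and 7 then have 1 library per group, so the spread comes from days 0 and 5 alone and the single libraries are assumed to vary like those. In that fit, which keeps the day 3 pair, the smallest p-values were those of VEGFA, SLC2A3, HIF1A, ENO2 and ANGPTL4. The other 12 called were ALDOA, PDK1, LDHA, HK2, BNIP3, TPI1, P4HA1, SLC16A1, PGK1, NDRG1, ENO1 and GAPDH. A fit with the day 3 pair left out as well was run, and its share over all genes is not given here.

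Days 1, 2, 3 and 10 have 1 library per group, so differences there have no replicate check and no test. On day 3 some HIF targets stood higher in the LLY-283 library and others did not. Ratios to vehicle were 1.1 for BNIP3, 1.06 for ANKRD37 and 0.944 for P4HA1. Of 40 members with at least 20 counts in 1 of that pair, 23 stood above 1 and 17 below, and the split over all genes was not computed. Members with at least 20 counts in 1 of the pair were read against a fold of 1.5. At day 1 none of 39 members passed it (3.47% of all genes higher and 2.75% lower). At day 2 only SLC16A3 of 40 was higher (4.46% of genes), at 25 against 11 counts, and none was lower (2.46%). In that pair COL1A1, COL1A2 and FN1 stood at 31.5, 16.2 and 26 CPM in LLY-283 and 9.78, 0.763 and 3.15 CPM in vehicle. The part of these fibroblast markers was not tested. At day 3, 6 of 40 members were higher (7.33% of genes) and none lower (3.03%). At day 10 none of 39 was higher (5.94%) and only VEGFA was lower (3.9%), at 0.622 of vehicle (exact 95% interval 0.563 to 0.688, which like those that follow covers counting error only).

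The 6 genes of day 3, chosen after their values were seen, were NDRG1, ANGPTL4, CA9, ADM, ENO2 and SLC2A3. NDRG1 had 52 counts in the LLY-283 library and 10 in vehicle, a ratio of 4.71 (exact 95% interval 2.37 to 10.4). ANGPTL4 had 159 and 49 counts, or 8.82 and 3.0 CPM, a ratio of 2.94 (2.12 to 4.14). CA9, the membrane carbonic anhydrase that acidifies the surroundings of hypoxic cells, had 25 counts against 0. Setting vehicle to a floor of 3 counts gives 7.55-fold, and the exact 95% interval of the ratio starts lower, at 5.7. CA9 was at 1.39 CPM in the LLY-283 library of day 3. It was at 0 in 21 of the other 23 libraries and under 0.05 CPM in the remaining pair, both of day 0. The ratio was 1.97 (1.43 to 2.72) for ADM, 1.73 (1.49 to 2.0) for ENO2 and 1.53 (1.44 to 1.62) for SLC2A3. BNIP3L, at 1.5 after rounding (1.33 to 1.69), and VEGFA, at 1.45 (1.3 to 1.61), were just under the fold. Of all 24 libraries, that of vehicle at day 10 was the highest for most members, 9, where 11.1% of all genes were highest there. The LLY-283 library of day 3 was the highest for 7 members (ENO2, PDK3, PFKFB4, CA9, ADM, ANGPTL4 and KDM3A), where 5.46% of all genes were highest there. It was the lowest for 7 (SLC16A1, HK1, PFKM, ALDOA, ENO1, PKM and LDHB), and the share of all genes lowest there was not computed. Summed fibroblast markers were 226 CPM in it and 131 in the vehicle library of day 3, and their part was not tested. The gap lay mainly in POSTN (94.9 and 34.1 CPM) and ACTA2 (80.2 and 62.7 CPM), while COL1A1 stood at 8.98 and 8.08 CPM. By day 5 NDRG1, ANGPTL4, ENO2 and SLC2A3 were not called between the groups.

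**Figure D5:**
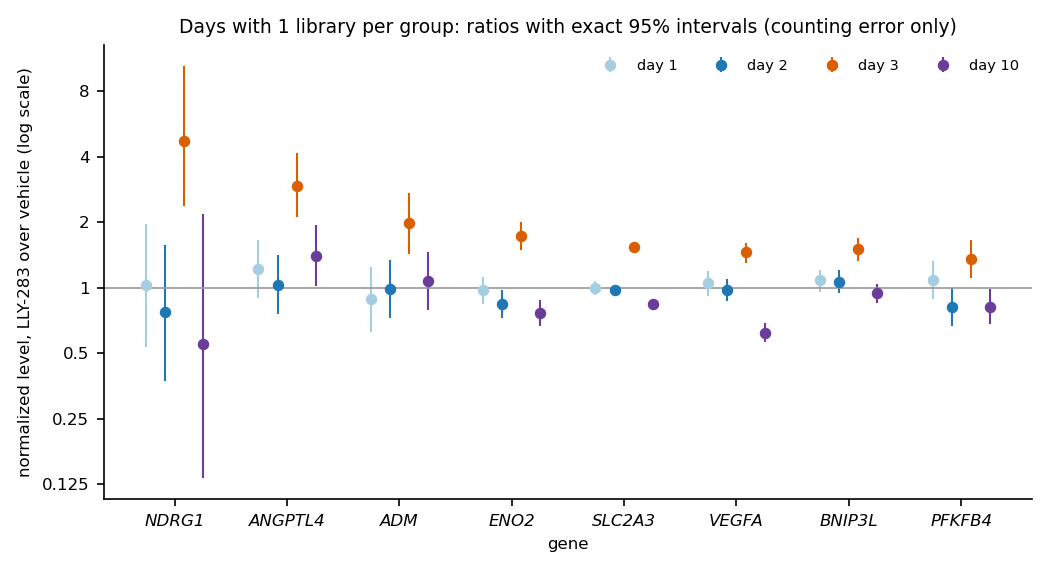
Ratio of the normalized level in the LLY-283 library to that in the vehicle library for the 8 members with the highest day 3 ratios among those with at least 20 counts in 1 of the pair and counts in both, on the 4 days with 1 library per group, on a log scale, with exact 95% intervals that cover counting error only. The day 3 ratios run from 1.35 for PFKFB4 to 4.71 for NDRG1. Over all 40 members with at least 20 counts, 23 were above 1 and 17 below, and the split over all genes was not computed.

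Other genes of the pathways, from lists that are not members, were counted in the same fits. At day 5, 12% of all 16491 genes tested were called higher under LLY-283 and 14.1% lower. Among 33 other HIF pathway genes at day 5, 7 were called higher under LLY-283 and 2 lower, with a median log2 difference of 0.085. TFRC, the transferrin receptor, was higher by 0.54 (adjusted p = 3.93e-12) and PLOD2, a collagen lysyl hydroxylase, by 0.51 (1.47e-10). MIF, a cytokine, was lower, at -0.39 (1.33e-08). Of 33 other glycolysis and pyruvate genes 24 were tested, with 4 called higher and 2 lower and a median of 0.032. The 4 included PFKFB2 at 0.55 (adjusted p = 4.1e-09) and TXNIP, which restrains glucose uptake, at 0.33 (6.93e-07). The others were TIGAR, which lowers the activator of phosphofructokinase, at 0.28 (4.2e-06) and SLC2A13 at 0.28 (5.85e-05). All 7 pentose phosphate genes were tested, 6 were called lower and none higher, and their median was -0.226. TKT, transketolase, stood at -0.34 (adjusted p = 7.89e-09), and PGLS, at 0.02, was the one not called. Over culture in vehicle, 22.2% of all genes tested were called higher and 16.7% lower. Of these 7 genes, 5 were called higher and 1 lower. Among the 33 other HIF genes over culture in vehicle, 11 were called higher and 5 lower, with CCNG2 at 1.045 and BHLHE40 at 0.77 among those that rose.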

How the data were processed

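Poly(A) RNA of 24 libraries was sequenced by the authors as paired reads from a directional kit. After trimming, reads were pseudoaligned by the authors to hg38 transcripts with kallisto (version not given in the sources used here), and the deposited values are estimated counts per gene, rounded and without scaling for depth. Whether strand was used in counting is not given. Groups were compared on these estimated counts with edgeR 4.0.16 (R 4.3.3; TMM, its filter on low counts by group, robust quasi-likelihood fit, Benjamini-Hochberg adjustment over all genes tested, called at adjusted p under 0.01), within the groups compared. CPM were scaled by TMM over all 24 libraries. Symbols matched 58207 of 58676 identifiers. Depth lay between 13835205 and 23190369 counts per library, and low genes such as EGLN3 and NDRG1 rest on few counts. Repeat numbers were not used as pairs.

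The members and lists were chosen with earlier results of these data known. Values in every library are printed for the 2 members of smallest p per role at day 5 and over culture in vehicle and for any member called in the interaction or time course, and the rest by range. Tests were checked on simulated data. Alternatives were DESeq2 1.42.0, its size factors, library size alone, other filters, a threshold of 0.05, a replicate block, a shared fit of 22 libraries, pseudogene copies added, and each library left out in turn. After the values were seen, a crossed block at day 7, a shared fit of 20 libraries without the day 7 repeat 2 libraries and a time course also without day 3 were added. The values of 1 comparison gene are not reported here.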

Additional observations from a re-analysis of the deposited data

Results flagged for a closer look

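The change from day 0 to day 5 differed between the treatment groups, by the interaction test, for 15 members. It was higher under LLY-283 for HIF1A by 0.43, for ADM by 0.93 and for PFKFB3 by 0.28 on the log2 scale. It was lower for PDK1 at -0.58, VEGFA at -0.40, HK2 at -0.29, LDHA at -0.28, ALDOA at -0.27 and PGK1 at -0.26 on that scale. The values were -0.25 for GAPDH, TPI1 and P4HA1, -0.24 for SLC16A1 and ENO1, and -0.23 for PGAM1.

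On day 3, which no comparison of replicated groups uses, NDRG1 was 4.71-fold and ANGPTL4 2.94-fold higher in the LLY-283 library than in vehicle. CA9 had 25 counts against 0 in that pair. Setting vehicle to a floor of 3 counts gives 7.55-fold for CA9, and the exact interval of its ratio starts lower, at 5.7. Each ratio rests on 1 library per group and was not tested on its own.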

How the results depend on the processing

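The count of called members stayed within 1.5 times of its main value under every alternative run for the treatment difference at day 5 (12 to 25 members, main 18) and for day 5 against day 0 in LLY-283 (23 to 31, main 25). In vehicle, day 5 against day 0 called 15 members in the shared fit of 22 libraries and 21 to 28 otherwise (main 25). The interaction called 0 members in the shared fit and 14 to 20 otherwise (main 15). Day 7 against day 5 called 1 member with no filter on low counts and 2 without the day 7 repeat 2 libraries (main 0). The time course called 1 under DESeq2, 7 with no filter, 17 without the day 7 repeat 2 libraries 15 without these and the day 3 pair, and 0 to 4 on leaving out single libraries (main 0), the 4 without LLY-283 day 7 repeat 1. The shared fit of 20 libraries left out the day 7 repeat 2 libraries. It called 18, 25, 25 and 16 members for the day 5 difference, culture in vehicle, culture in LLY-283 and the interaction. Its day 7 groups held 1 library each, so no call is counted for the treatment difference at day 7. For the counts of called members under the alternatives in this section, shares over all genes are not given. The fits of 20 libraries and that without day 3 were added after seeing the data. The cause was not tested.

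Leaving out single libraries gave 14 to 20 members at day 5, 21 to 25 over culture in vehicle, 24 to 29 in LLY-283 and 14 to 15 for the interaction. Scaling by library size alone called 6 members higher and 14 lower at day 5, and 13 higher and 12 lower over culture in vehicle. Of the values of single called members under alternatives, 1236 kept direction and call, 82 kept direction and lost the call, and 0 turned. Repeat numbers did not pair the libraries (same-numbered r between -0.095 and 0.024 at days 0 and 5), and the replicate block called 19 members at day 5, 25 over culture in vehicle, 27 in LLY-283, 15 for the interaction and 0 elsewhere. At day 7 same-numbered libraries deviated in opposite directions (r = -0.22), and crossing the numbers called 0 members.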
